A study of Homo sapiens with 14 samples.

Results

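Transcripts annotated as targets of nonsense-mediated decay (NMD) were followed across the libraries of a compound treatment study in MDA-MB-231 cells. They are the transcripts of the quantified set whose GENCODE transcript type is nonsense_mediated_decay. There were 16627 of them among 228754 transcripts. They belonged to 7392 genes, all of them protein-coding. At least 1 library had a read for 11070 of these transcripts, and 1505 had a read in all 14 libraries.

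Polyadenylated RNA was sequenced in 14 libraries, with 2 replicates in each of 7 groups. MDA-MB-231 is a human triple-negative breast cancer cell line. The control cells carry no treatment time. The methods for the sequencing call them untreated, while other passages of the study name DMSO, the solvent, as the control. The other 6 groups received 5 µM RBI2, a small molecule inhibitor of ribosome biogenesis, or 5 µM CX-5461, a known inhibitor of rRNA synthesis by RNA polymerase I, with treatment times labelled 10 min, 30 min and 120 min. No source says that the replicates were separate cultures, so that p-values measure the spread between these libraries, which may be technical. Libraries held between 14112299 and 24849354 assigned reads. VIM, CD44, AXL, CAV1 and MSN, which are high in mesenchymal breast cancer lines, stood at 181 TPM or more in every library (TPM is a level scaled to transcript length and library size). ESR1, PGR, CDH1 and ERBB3 stayed at or under 0.736 TPM, whereas EPCAM stood between 11.4 and 22.4 TPM.

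NMD is a surveillance pathway that degrades mRNAs on which translation ends too early. A stop codon that lies well upstream of the last exon-exon junction leaves an exon junction complex downstream of the ribosome, and the helicase UPF1 with the SMG and UPF proteins then directs the mRNA to decay. Many RNA-binding proteins use the pathway to limit their own expression, by including a so-called poison exon with a stop codon. The annotated type is a prediction from the reading frame, and the level of such a transcript at steady state reflects both its production and its decay, which cannot be told apart in these data.

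The reading frames of the members show why they carry this type. The median member had 7 exons, a length of 1284 nt and a coding sequence of 296 nt. Its stop codon lay 344 nt before the last exon junction (quartiles 171 and 786 nt), whereas that of the median protein-coding transcript lay 132 nt after it (median position -132 nt). Only 6 of 16617 members with a complete stop codon had it less than 50 nt before the last junction, and 0.796% of protein-coding transcripts had it 50 nt or more before. The stop codon of 7114 members fell outside the exons of the gene's canonical transcript, that of 8459 fell inside these exons but at another position than the canonical stop, and that of 1044 was the canonical stop itself, followed by further exons. TAA ended 21.9% of members and 28.5% of protein-coding transcripts, and TGA ended 58.7% of members. The start of the coding sequence was incomplete in 25.1% of the members.

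The bases around the premature stop are shown for 10 members that the results below turn on, 5 with graded changes, HNRNPL-202 and SRSF7-208 of splicing regulators, TRA2B-205 of a further splicing regulator, and ZW10-202 and KDM3B-207, which were listed at 0 in whole groups. Each sequence is the last 27 coding bases and the stop codon, with the stop codon in capitals, from the GENCODE release 44 transcript on GRCh38. The stop codons lie at chr4:121811597-121811599 (EXOSC9, plus strand), chr3:170868109-170868111 (RPL22L1, minus strand), chr10:17235910-17235912 (VIM, plus strand), chr10:93323093-93323095 (MYOF, minus strand), chr19:1089526-1089528 (POLR2E, minus strand), chr19:38841624-38841626 (HNRNPL, minus strand), chr2:38749516-38749518 (SRSF7, minus strand), chr3:185931772-185931774 (TRA2B, minus strand), chr11:113736771-113736773 (ZW10, minus strand) and chr5:138386354-138386356 (KDM3B, plus strand).
EXOSC9-212: atccagtccagtggttctgagatgcagTAA
RPL22L1-204: ataggagcaatttctacgggagaaggtTAA
VIM-206: ctgaggggtaagcattttatttcccttTAG
MYOF-205: gaaaagcatcacaggagaggaaatgagTGA
POLR2E-201: gcaggtggtgaagatcatccggcccagTGA
HNRNPL-202: tctttcagaactgtgctaactcactgtTGA
SRSF7-208: cggcgaagaagaagcaggtatttatttTAA
TRA2B-205: aatgagtatttgaagctcaggaataagTGA
ZW10-202: gtcattggcaaaattactgccctagagTGA
KDM3B-207: aaacggcaggactctggtggtgcaggaTGA

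In VIM-206, HNRNPL-202, SRSF7-208 and TRA2B-205 the stop codon lies in an exon stretch that the canonical transcript lacks. In the other 6 it lies within canonical exons. The distance from the stop to the last exon junction is 2801 nt in EXOSC9-212, 96 nt in RPL22L1-204, 467 nt in VIM-206, 706 nt in MYOF-205 and 54 nt in POLR2E-201. It is 842 nt in HNRNPL-202, 1138 nt in SRSF7-208, 1015 nt in TRA2B-205, 151 nt in ZW10-202 and 4090 nt in KDM3B-207.

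NMD transcripts held a small share of the reads, even across 13 libraries and higher in control replicate 2. Of the reads of genes with such a transcript, 7.95% were assigned to them in control replicate 1 and 10.8% in control replicate 2, while the 12 treated libraries lay between 7.58% and 8.08%. The group means were 7.93% ± 0.212 (SD, n = 2), 7.66% ± 0.0997 and 7.70% ± 0.104 with RBI2 labelled 10, 30 and 120 min. They were 7.69% ± 0.161, 7.80% ± 0.259 and 7.98% ± 0.0899 with CX-5461 at the same labels. RBI2 and CX-5461 libraries had means of 7.76% and 7.82% (two-sided exact permutation within times, p = 0.583, where the smallest possible p is 0.00926). Treated libraries had a mean of 7.79% and the controls of 9.38%, a difference of -1.59 percentage points (two-sided exact permutation p = 0.0440 over 91 arrangements). Without control replicate 2 this difference was -0.151 (exact permutation p = 0.615), and without replicate 1 it was -3.03 (exact permutation p = 0.0769, the smallest that 13 arrangements allow).

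**Figure D1:**
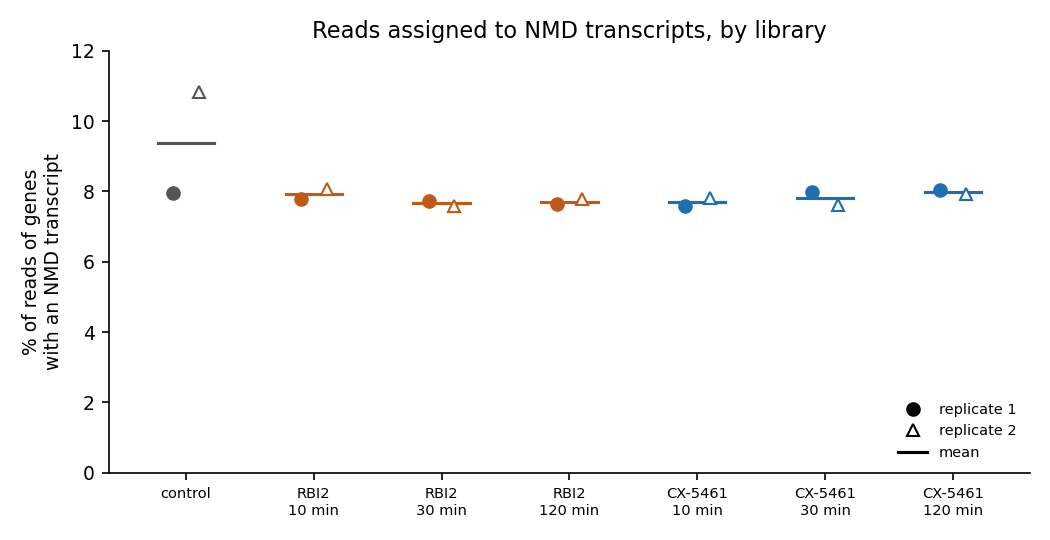
Percent of the reads of genes with an NMD transcript that were assigned to NMD transcripts (y axis), for each of the 14 libraries by group (x axis, filled circle replicate 1, open triangle replicate 2, line mean). Control replicate 2 stands at 10.8%, and the other 13 libraries lie between 7.58% and 8.08%.

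Control replicate 2 stood apart from the other libraries. Mitochondrial genes took 20.4% of its reads and 8.05% to 11.2% elsewhere. Over the tested NMD transcripts its log2 levels correlated with those of other libraries at 0.413 to 0.525, a description across transcripts that share an annotation. It was the highest of the 14 libraries for 972 of 5056 tested members, against 213 to 444 for the others. It was also the lowest alone for 492, against 48 to 168 for the others. At 50 reads or more in 1 control and 0 in the other there were 758 members, and 304 to 392 in each other group. Comparisons with the control are therefore given with and without this library where it decides a value.

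Few members held many reads. A mean of at least 1 TPM was reached by 2828 members and of at least 10 TPM by 657. The 10 members with the highest mean TPM came from ribosomal proteins (RPL8-211, and RPS3-210, RPS3-216, RPS3-215 and RPS3-204), the 14-3-3 protein gene YWHAE (YWHAE-202), lactate dehydrogenase (LDHA-222), beta-2-microglobulin (B2M-208), the AU-rich element binding protein gene HNRNPD (HNRNPD-211) and the mitochondrial chaperone gene HSPA9 (HSPA9-208). RPL8-211 stood at 0 TPM in control replicate 2 and at 699 to 1065 TPM elsewhere, and held 27.5% to 38.8% of the RPL8 reads outside that library. HNRNPD-211 held 34.0% to 48.3% of the HNRNPD reads over all 14 libraries. HSPA9-208 held 9.33% to 12.5% in 13 libraries and 17.9% in control replicate 2. None of these 10 was called in any comparison by edgeR. RPS3 has 4 of these members, and reads that several transcripts share were divided between them by estimation.

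In most genes the share was low. Among 4689 genes with an NMD transcript and a mean of at least 100 reads, the members held a median of 1.91% of a gene's reads (quartiles 0.255% and 11.8%). They held over 50% in 270 genes and under 1% in 1922.

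NMD transcripts were often listed at 0 in single libraries. Of 3628 members with a mean of at least 10 reads, 2247 (61.9%) were listed at 0 in at least 1 library, against 41.2% of 26588 protein-coding transcripts, 39.0% of retained introns and 27.7% of long non-coding RNAs at the same mean. At a mean of at least 100 reads these shares were 32.0% of 1046 members and 18.4% of protein-coding transcripts, and at 1000 reads 14.9% of 94 and 4.49%. Retained introns stood at 18.7% and 12.7% at these limits, and long non-coding RNAs at 10.2% and 7.14%. Transcripts typed as protein-coding without a defined coding sequence stood at 48.5%, 25.7% and 3.70% at 10, 100 and 1000 reads. Levels were not matched within these classes. Among members at 0 in exactly 2 libraries, the 2 belonged to the same group in 30 of 291 (10.3%), and in 135 of 1501 protein-coding transcripts (8.99%). A value of 0 is an estimate that assigned no read to the transcript, and for a gene with reads it does not show that the transcript was absent.

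**Figure D2:**
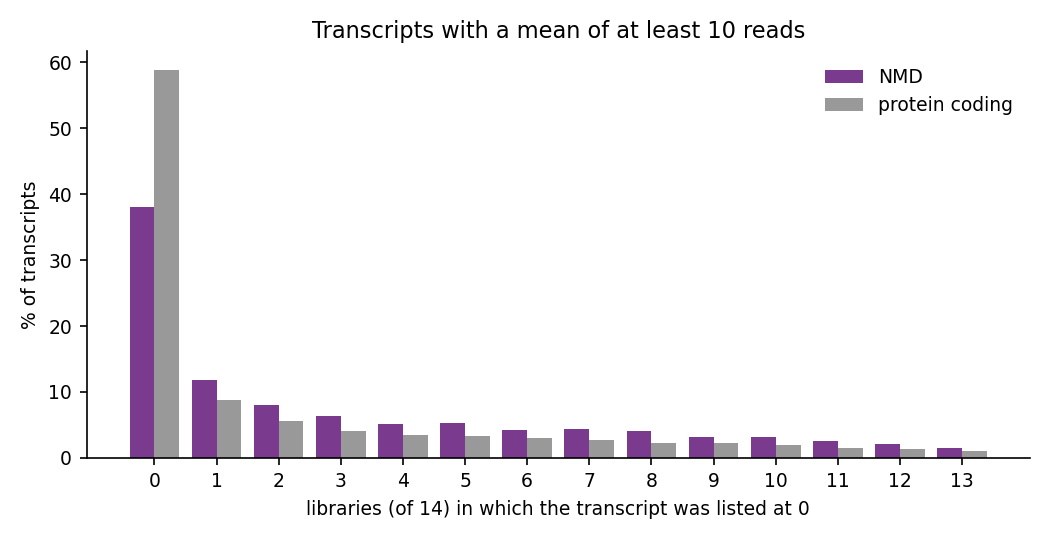
Number of libraries, of 14, in which a transcript was listed at 0 (x axis) and percent of transcripts with that number (y axis), for 3628 NMD transcripts (purple) and 26588 protein-coding transcripts (grey) with a mean of at least 10 reads. No library was at 0 for 38.1% of the NMD and 58.8% of the protein-coding transcripts.

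The levels of 5056 members (30.4%) and the shares of 3545 could be tested. A member was called when the Benjamini-Hochberg adjusted p of edgeR's quasi-likelihood test, over all 55593 transcripts for the level and all 38534 for the share of the gene, was under 0.05 and the log2 difference at least 1. Against the control, the level of 4 members was called with RBI2 labelled 10 min (0.0791% of those tested, against 0.0738% of all transcripts). At the RBI2 label of 30 min 6 members were called (0.119% against 0.101%), and at 120 min 10 (0.198% against 0.165%). CX-5461 labelled 10 min gave 13 called members (0.257% against 0.293%), at 30 min 3 (0.0593% against 0.0684%) and at 120 min 6 (0.119% against 0.0899%). Between RBI2 and CX-5461, 5 members differed at 10 min (0.0989% against 0.219%), 3 at 30 min (0.0593% against 0.0468%) and 5 at 120 min (0.0989% against 0.0917%). Within one compound, 7 members differed between CX-5461 at 10 min and its later labels (0.138% against 0.243%) and 8 between RBI2 at 120 min and its earlier labels (0.158% against 0.113%). On 5 and 7 calls, the shares between the compounds at 10 min and within CX-5461 lay below their backgrounds. The others lay near theirs, and no such difference was tested. In a fit of only the 2 groups (or 3, within a compound) compared, none of the 70 level calls over the 11 comparisons was kept, nor any of the 55 calls of the share. Such a fit estimates the spread from fewer libraries. Without control replicate 1, which leaves control replicate 2 alone in that group, 211 to 266 members were called in the 6 comparisons with the control (3.32% to 4.19% of those tested, against 4.43% to 5.49% of all transcripts), and without control replicate 2 between 1 and 15 (0.0166% to 0.25% against 0.0913% to 0.331%). DESeq2 called 95 to 190 members against the control (1.88% to 3.76% against 1.65% to 3.24%) and 78 to 159 in the other 5 comparisons (1.54% to 3.14% against 1.26% to 2.84%).

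The share of the gene gave similar counts. With RBI2 it was called against the control in 4 members at 10 min (0.113% of 3545, against 0.0779% of all transcripts), 7 at 30 min (0.197% against 0.135%) and 9 at 120 min (0.254% against 0.187%). With CX-5461 it was called in 7 members at 10 min (0.197% against 0.244%), 3 at 30 min (0.0846% against 0.0753%) and 5 at 120 min (0.141% against 0.109%). RBI2 and CX-5461 differed in 3 members at 10 min (0.0846% against 0.132%), 3 at 30 min (0.0846% against 0.0701%) and 4 at 120 min (0.113% against 0.119%). The 2 comparisons within a compound gave 4 members for CX-5461 (0.113% against 0.2%) and 6 for RBI2 (0.169% against 0.163%). Without control replicate 1 the share was called in 190 to 228 members against the control (5.36% to 6.43%, against 6.86% to 8.29% of all transcripts), and without replicate 2 in 9 to 17 (0.254% to 0.48% against 0.205% to 0.379%). The comparisons with the control share its 2 libraries, and 1 member can be called in several of them.

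Over all tests 23 different members were called, 21 on the level, 16 on the share and 14 on both. In 18 of them both libraries of at least 1 group were listed at 0, and in 5 no library was at 0. These 5 are EXOSC9-212, RPL22L1-204, VIM-206, MYOF-205 and POLR2E-201. All except RPL22L1-204, and HNRNPL-202 below, fell outside the naming rule and were chosen after their values were seen.

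EXOSC9 encodes a core subunit of the RNA exosome, which degrades RNA from its 3′ end. EXOSC9-212 held 20.8% and 16.9% of the EXOSC9 reads in the controls, and 7.96% and 8.5% with CX-5461 labelled 10 min. Its share was 16.2% and 18.2% for the label 30 min and 19.1% and 19.6% for 120 min of CX-5461. The RBI2 shares were 18.5% and 14.9% for 10 min, 18.1% and 15.8% for 30 min and 20.7% and 17.2% for 120 min. Both libraries at 10 min of CX-5461 lay below the other 12, which stood at 14.9% or more. The level was 3.66 ± 0.146 TPM at that label and 7.92 ± 3.57 TPM in the controls (SD, n = 2), and the log2 change in read count was -1.41 (SE 0.185, edgeR adjusted p = 0.0225). Against the later CX-5461 labels it was -1.17 (SE 0.166, edgeR adjusted p = 0.0389). The share itself did not pass (log2 odds ratio -1.37, edgeR adjusted p = 0.268). When single libraries were left out, the change against the control stayed between -1.47 and -1.35, and the adjusted p rose to as much as 0.204, past the threshold without any 1 of 10 libraries (those of CX-5461 at all labels, and of RBI2 at 30 and 120 min). Against the later labels the call was lost without any 1 of 12 libraries, all but the controls (log2 -1.23 to -1.12, adjusted p up to 0.345). The gene overlaps CCNA2 on the opposite strand.

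VIM encodes vimentin, the intermediate filament protein of mesenchymal cells. VIM-206 was a minor transcript of this highly expressed gene. It was assigned 489 and 536 reads in the controls, which was 0.974% and 1.26% of the VIM reads. The CX-5461 libraries had 42.8 and 66.2 reads for the label 10 min (0.0717% and 0.112%), 187 and 179 for 30 min and 299 and 244 for 120 min. The RBI2 libraries had 350 and 318 reads for 10 min, 391 and 207 for 30 min and 140.1 and 230.5 for 120 min. The controls held the 2 highest shares and CX-5461 at 10 min the 2 lowest. Against the control the level fell by 3.53 on the log2 scale with CX-5461 labelled 10 min (SE 0.389, edgeR adjusted p = 0.0116), and the share by 3.64 (SE 0.424, edgeR adjusted p = 0.0173). With RBI2 at 10 min the level was higher than with CX-5461 at 10 min, by 2.72 (SE 0.376, edgeR adjusted p = 0.0347). The level call against the control was lost without CX-5461 10 min replicate 1 or replicate 2 (log2 -3.90 to -3.25 over the 14 left-out libraries, adjusted p up to 0.0943). The share call was lost without either of these or either library at 120 min of CX-5461 (adjusted p up to 0.0736). The call between the compounds was lost without any 1 of 10 libraries, all but the controls and RBI2 at 120 min (log2 2.41 to 3.06, adjusted p up to 0.267). The antisense gene VIM-AS1 overlaps VIM-206 on the opposite strand.

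RPL22L1 encodes a paralog of ribosomal protein L22. RPL22L1-204 held 15.2% and 28.3% of the RPL22L1 reads in the controls, and 5.14% and 3.19% with CX-5461 labelled 10 min. The other 10 libraries lay at or under 22.5%, and both libraries at 10 min of CX-5461 were below all others. Its level was 8.01 ± 3.49 TPM there and 37.6 ± 2.43 TPM in the controls (SD, n = 2), a log2 change of -2.21 (SE 0.332, edgeR adjusted p = 0.0418). The share did not pass (log2 odds ratio -2.64, edgeR adjusted p = 0.117). The log2 change was -2.72 to -1.85 with a library left out, and the call was lost without any 1 of 13 libraries, all but control replicate 1 (adjusted p up to 0.222).

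POLR2E encodes a subunit common to the 3 nuclear RNA polymerases. POLR2E-201 held 34.1% and 47.0% of the POLR2E reads in the controls. The CX-5461 shares were 70.1% and 69.1% for the label 10 min, 61.0% and 34.6% for 30 min and 70.3% and 72.1% for 120 min. The RBI2 shares were 65.1% and 62.9% for 10 min, 69.4% and 72.4% for 30 min and 49.5% and 65.6% for 120 min. Of the treated libraries, 11 lay above both controls. The level was called in 1 comparison, with CX-5461 at 10 min against the control (95.5 and 89.5 TPM against 40.1 and 23.1 TPM, log2 1.48, SE 0.218, edgeR adjusted p = 0.0392). The level was also above the control mean of 31.6 TPM, without a call, in RBI2 at 30 min (105.1 TPM, log2 1.38, edgeR adjusted p = 0.108), which was the highest group, in RBI2 at 10 and 120 min (82.6 and 68.5 TPM) and in CX-5461 at 30 and 120 min (59.4 and 79.1 TPM). Its share was not called (log2 odds ratio 1.76, edgeR adjusted p = 0.562). The call was lost without any 1 of 11 libraries, all but control replicate 1 and the 2 of CX-5461 at 30 min (log2 1.23 to 1.77, adjusted p up to 0.159), and without control replicate 2 the change was 1.23 (adjusted p = 0.0752).

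MYOF encodes myoferlin, a membrane protein of vesicle fusion and membrane repair. MYOF-205 held 54.5% and 56.7% of the MYOF reads in the controls. The RBI2 shares were 48.5% and 26.7% for 10 min, 23.6% and 21.5% for 30 min and 12.9% and 13.9% for 120 min. The CX-5461 shares were 64.3% and 56.2% for 10 min, 53.0% and 58.7% for 30 min and 48.5% and 24.5% for 120 min. The 4 RBI2 libraries at 30 and 120 min were the lowest of the 14. The level was 13.0 ± 1.33 TPM with RBI2 at 120 min and 31.8 ± 4.66 TPM in the controls (SD, n = 2), a log2 change of -1.75 (SE 0.254, edgeR adjusted p = 0.0499). The share did not pass (log2 odds ratio -3.01, edgeR adjusted p = 0.215). The level call was lost without any 1 of 12 libraries, all but control replicate 1 and CX-5461 120 min replicate 2 (log2 -2.03 to -1.50, adjusted p up to 0.229).

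**Figure D3:**
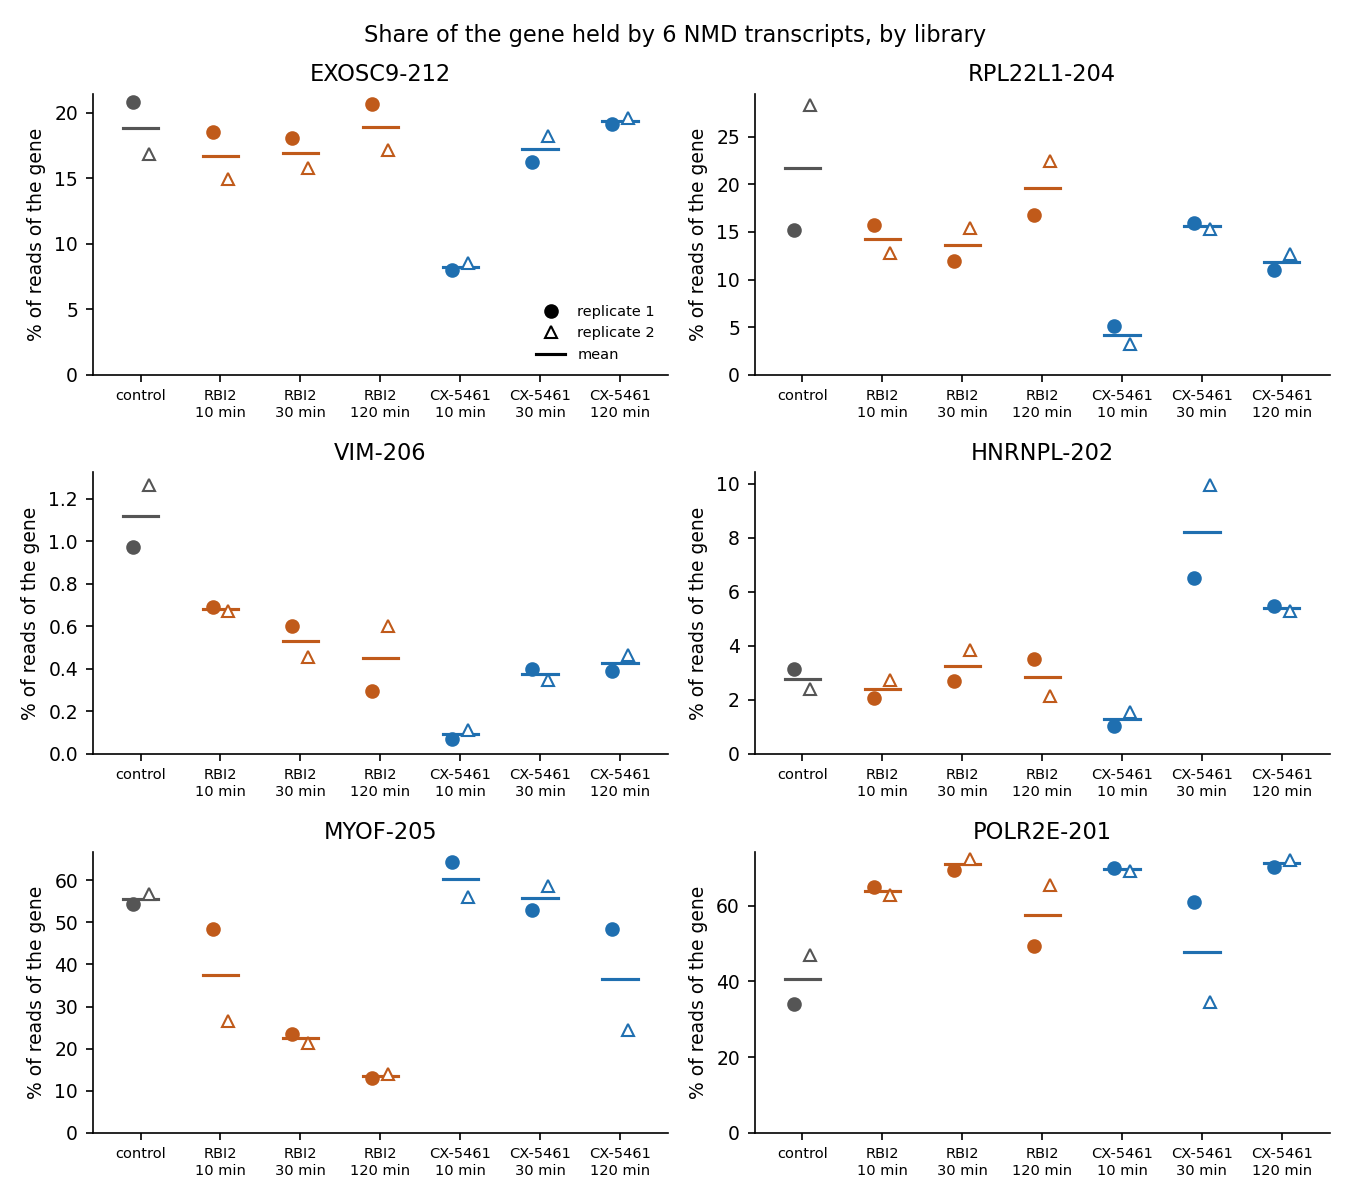
Percent of a gene's reads assigned to 1 NMD transcript (y axes, each from 0), for 6 transcripts, by library and group (x axes, filled circle replicate 1, open triangle replicate 2, line mean). EXOSC9-212 stands at 7.96% and 8.5% with CX-5461 at 10 min and at 14.9% or more elsewhere, RPL22L1-204, VIM-206 and HNRNPL-202 are also lowest there, MYOF-205 is lowest with RBI2 at 120 min, and POLR2E-201 is at 34.1% and 47.0% in the controls.

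The other 18 called members were listed at 0 in whole groups. ZW10 encodes a kinetochore protein of the spindle checkpoint. ZW10-202 had 0 reads in both libraries of RBI2 at 30 min, and 319 and 262 reads in the controls, 221 and 304 with RBI2 for 10 min, and 208 and 222 for 120 min. In the CX-5461 groups, in the order of their labels, it had 307.5 and 297, 108 and 145, and 557 and 508.5 reads. Its share of the ZW10 reads was 9.42% to 34.8% in these 12 libraries. ZW10-202 shares its interval with ENSG00000256603 and RPS29P19 on the same strand and ENSG00000257070 on the opposite strand. Its level in RBI2 at 30 min was lower than that of the control by at least 225-fold (edgeR adjusted p = 4.05e-04), and at least 98.9-fold lower than with CX-5461 at 30 min (edgeR adjusted p = 9.43e-04). Such a bound, here and below, sets 3 counts over the group in place of 0. It covers counting error only, not the division of reads between transcripts. Both calls held without any 1 of the 14 libraries.

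KDM3B encodes a histone H3 lysine 9 demethylase. KDM3B-207 had 0 reads in both controls and in both libraries of CX-5461 at 30 min. The other 10 libraries held 150 to 510 reads, or 15.4% to 46.6% of the KDM3B reads. Against the control it was at least 174-fold higher with RBI2 at 10 min (edgeR adjusted p = 0.00515), at least 103-fold at 30 min (edgeR adjusted p = 0.00503) and at least 134-fold at 120 min (edgeR adjusted p = 0.00429). With CX-5461 it was at least 157-fold higher than the control at 10 min (edgeR adjusted p = 0.00243) and at least 207-fold at 120 min (edgeR adjusted p = 0.00375). These 5 calls held without any 1 of the 14 libraries.

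At 0 in both libraries of RBI2 at 120 min, and nowhere else, were ARID1A-206 of a BAF chromatin remodelling subunit, BCLAF1-206 of an RNA processing factor, EFEMP1-214 of the matrix protein fibulin-3, PLAUR-210 of the urokinase receptor and SAMHD1-214 of a dNTP hydrolase. BCLAF1-206 had 762 and 761 reads in the controls and 131 to 800 in the treated libraries outside that group. The RBI2 level at 120 min was below the control by at least 511-fold (edgeR adjusted p = 0.0157), with at least 111-fold for SAMHD1-214 (edgeR adjusted p = 0.00707) and at least 71.5-fold for ARID1A-206 (edgeR adjusted p = 0.00652). These bounds, too, cover counting error only. Within this RBI2 group, 329 members had 50 reads or more in 1 library and 0 in the other. EFEMP1-214 was at least 35.9-fold lower (edgeR adjusted p = 0.0447), and PLAUR-210, with 5.62 to 32.8 reads elsewhere, was called on its share (edgeR adjusted p = 0.0391). The calls of SAMHD1-214 and ARID1A-206 held without any 1 library. That of BCLAF1-206 was lost without RBI2 120 min replicate 2 (adjusted p = 0.0537), that of EFEMP1-214 without any 1 of 13 libraries, all but control replicate 1 (adjusted p up to 0.161), and that of PLAUR-210 without any 1 of the 12 treated libraries (adjusted p up to 0.0880).

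ARMC6-219 was at 0 in CX-5461 at 10 min and RBI2 at 30 min and at 43.3 to 161 reads elsewhere. ZNF385A-211 was at 0 in RBI2 at 10 min alone (61.2 to 139 reads elsewhere), and SNF8-217, of an ESCRT-II subunit, in CX-5461 at 120 min alone (53.0 to 182 reads elsewhere). IDE-205, of the insulin-degrading enzyme, and NPIPB4-213 were at 0 in CX-5461 at 10 min alone, with 4.01 to 18.9 and 5.19 to 38.6 reads elsewhere. NPIPB4 belongs to a family of near-identical copies, so that its reads are uncertain. EIF4G3-207, of a translation initiation scaffold, was at 0 in RBI2 at 30 and 120 min, and was called on its share in both (16.7 to 51.1 reads elsewhere, edgeR adjusted p = 0.0488 and 0.0414). Each of these calls was lost without any 1 of 11 libraries, all but control replicate 1 and both RBI2 libraries at 120 min for the first or both CX-5461 libraries at 120 min for the second (adjusted p up to 0.117). Against the control, ARMC6-219 was at least 88.0-fold lower with CX-5461 at 10 min (edgeR adjusted p = 0.00624), a call that held without any 1 library, and at least 86.6-fold lower with RBI2 at 30 min (edgeR adjusted p = 0.0103), which was lost without either library of CX-5461 at 120 min (adjusted p up to 0.0532). ZNF385A-211 was at least 52.1-fold lower with RBI2 at 10 min (edgeR adjusted p = 0.00670) and kept the call without any 1 library. SNF8-217 was at least 103-fold lower (edgeR adjusted p = 0.0214), NPIPB4-213 at least 21.9-fold (edgeR adjusted p = 0.0222) and IDE-205 at least 7.31-fold (edgeR adjusted p = 0.0487). These were lost without any 1 of 7 libraries for SNF8-217 (those of CX-5461 at 10 and 30 min, RBI2 at 30 min and CX-5461 120 min replicate 2, adjusted p up to 0.114). For NPIPB4-213 the 10 were all but the controls and CX-5461 at 120 min (up to 0.143), and for IDE-205 the 13 were all but control replicate 1 (up to 0.267).

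At 0 in the controls alone were METTL26-211, RABL6-208, RTEL1-TNFRSF6B-202 and SMIM13-201. SMIM13-201 had 28.8 to 108 reads in the treated libraries, at least 28.2-fold to 48.8-fold more than the controls, and RABL6-208 had 10.7 to 37.0, at least 7.42-fold to 18.8-fold more. METTL26-211 had up to 54.0 reads in the treated libraries. With CX-5461 at 30 min against the control, the level was called for it, RABL6-208 and SMIM13-201 alone. With the replicate block no member was called on the level there. RTEL1-TNFRSF6B-202, of a read-through of RTEL1 and TNFRSF6B whose exons overlap both genes, had 34.2 to 171 and was at least 61.5-fold higher with CX-5461 at 10 min (edgeR adjusted p = 0.0491), a call lost without any 1 of 11 libraries, all but control replicate 1 and those of CX-5461 at 120 min (adjusted p up to 0.159). The level calls of METTL26-211, RABL6-208 and SMIM13-201 against the control held in every comparison without control replicate 1, and each was lost without at least 1 other library (adjusted p up to 0.162, 0.145 and 0.106). The transcript ENST00000570760, the only one of its gene, had 0 reads in the controls, in RBI2 at 10 and 30 min and in CX-5461 at 30 min, and 286 to 627 reads in the other 6 libraries. Same-strand neighbours share its interval, so its reads are uncertain. These are GABARAP and CTDNEP1. Its calls against the control were lost without any 1 of these 6 libraries (adjusted p up to 0.139). Other members of the 18 also share their interval with further genes. On the opposite strand these are SUGP2 for ARMC6-219, TLDC2 for SAMHD1-214, ERVFRD-1 for SMIM13-201 and GPR84-AS1 for ZNF385A-211, among others. Of the 18, ARID1A-206, EFEMP1-214, EIF4G3-207, IDE-205, PLAUR-210, RABL6-208 and RTEL1-TNFRSF6B-202 fell outside the naming rule and were chosen after their values were seen.

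**Figure D4:**
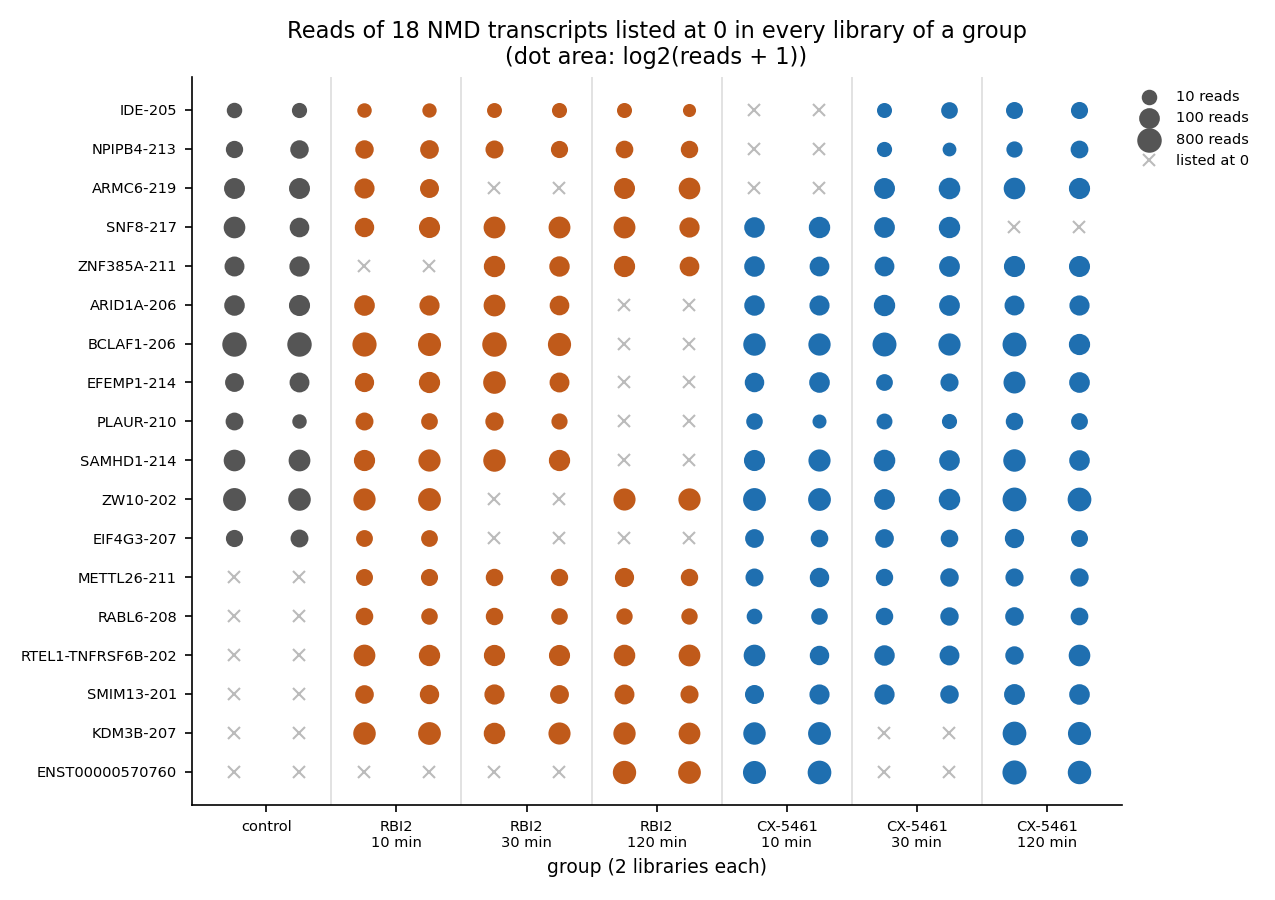
Reads assigned to 18 NMD transcripts (rows) in each of the 14 libraries (columns, 2 per group), with a dot whose area grows with log2(reads + 1) and a cross where the transcript was listed at 0. In each row both libraries of at least 1 group are at 0, such as the controls for SMIM13-201 and RBI2 at 120 min for BCLAF1-206.

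Splicing regulators are the classic genes of poison exons, and 42 of the listed genes had 118 NMD transcripts. Of these, 66 could be tested on the level and 57 on the share. None was called by edgeR in any of the 11 comparisons on either measure. An unadjusted p under 0.05 was reached by 1 to 13 on the level and 1 to 8 on the share. Of all transcripts, edgeR called 0.0468% to 0.293% on the level and 0.0701% to 0.244% on the share. No call among 66 or 57 transcripts lies near these shares. DESeq2 called 6 to 11 on the level against the control (9.09% to 16.7% of the 66, against 1.65% to 3.24% of all transcripts) and 3 to 7 in the other comparisons (4.55% to 10.6% against 1.26% to 2.84%). The limma counts were 0 to 2 on the level and 0 or 1 on the share, without a share of all transcripts beside them. A p that misses the threshold does not show that their levels were alike. The median log2 level change against the control lay between -0.54 and -0.12, where that of all transcripts was 0 to 0.01. Without control replicate 2, when 72 could be tested, it was 0 in 5 of the 6 comparisons and 0.24 with CX-5461 at 120 min. Together these transcripts took 5.97% to 7.96% of the reads of their genes in 13 libraries, and 14.1% in control replicate 2.

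**Figure D5:**
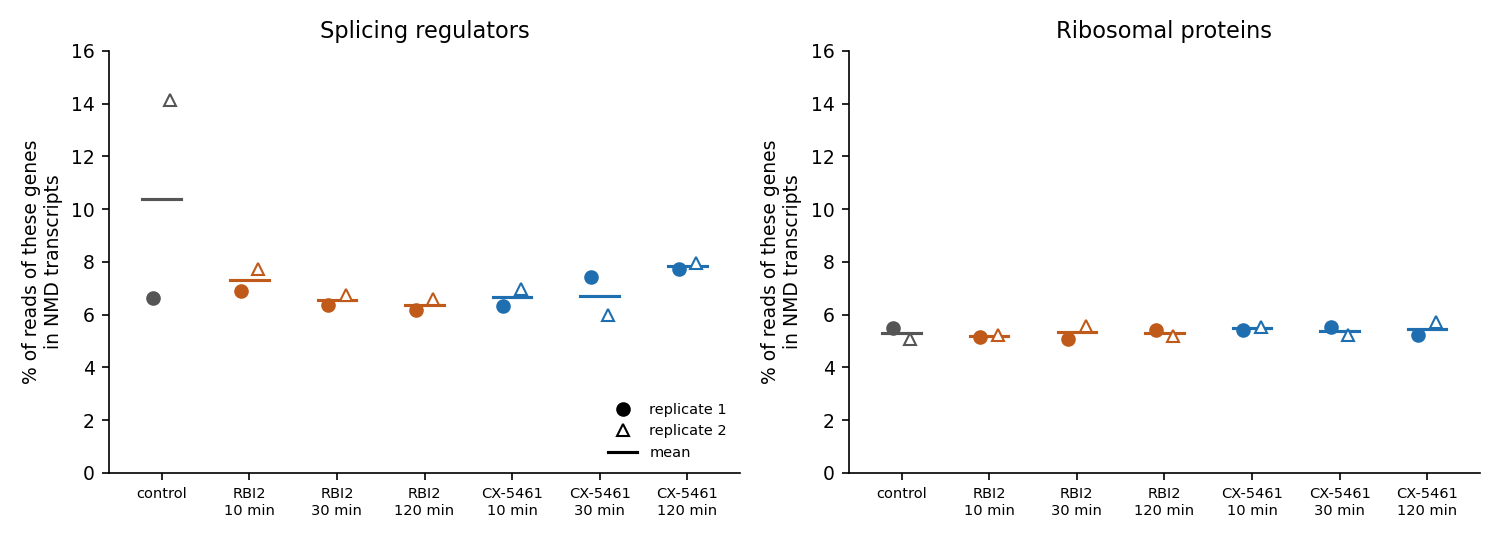
Percent of the reads of the listed genes that were assigned to their NMD transcripts (y axes), by library and group (x axes, filled circle replicate 1, open triangle replicate 2, line mean), for splicing regulators on the left and ribosomal protein genes on the right. Control replicate 2 stands at 14.1% for splicing regulators, where the other 13 libraries lie between 5.97% and 7.96%, and all 14 lie between 5.08% and 5.70% for ribosomal proteins.

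Among SR proteins, which promote exon inclusion, SRSF1-207 held 4.40% to 7.86% of the SRSF1 reads in 13 libraries and 17.0% in control replicate 2. SRSF3-203 held 0.431% to 4.39% and 13.3% in that library, and SRSF6-202 0% to 4.03% and 9.31%. SRSF7-208 was also highest there, at 30.5%. The reverse order held for TRA2B-205, a transcript of the gene for a splicing activator of the same family. It held 26.0% to 31.2% of the TRA2B reads in 13 libraries and 4.11% in control replicate 2. RBM39-202 held 0.865% there and 4.91% to 21.1% elsewhere. SRSF10-215 and SRSF11-211 held at most 1.34% and 0.995% of their genes in every library.

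SRSF7-208 and HNRNPL-202 were lowest with CX-5461 at 10 min, like EXOSC9-212. SRSF7-208 held 11.2% and 12.3% of the SRSF7 reads there, 17.1% and 12.4% for the label 30 min and 23.6% and 27.8% for 120 min. Its level differed by -0.95 from the control (edgeR adjusted p = 0.226) and was not called. HNRNPL, an RNA-binding protein of the hnRNP family, represses and activates exons. HNRNPL-202 held 1.03% and 1.54% with CX-5461 at 10 min, 6.49% and 9.97% for 30 min and 5.49% and 5.27% for 120 min. It held 3.14% and 2.40% in the controls and 2.05% to 3.84% with RBI2, so that the CX-5461 libraries at 10 min lay below and those at the later labels above all others. The differences between CX-5461 at 10 min and the later labels were -2.31 on the level (edgeR adjusted p = 0.0814) and -2.47 on the share (edgeR adjusted p = 0.0656), neither of which passed.

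TRA2A encodes a splicing activator related to TRA2B. TRA2A-211 was at 0 in both controls and both CX-5461 libraries at 120 min, at 1.89% and 0% of the TRA2A reads with CX-5461 at 10 min and at 0.751% and 0% at 30 min. The RBI2 shares were 3.97% and 3.63% for 10 min, 3.50% and 6.04% for 30 min, and 0% and 7.68% for 120 min. The 4 RBI2 libraries at 10 and 30 min lay above every control and CX-5461 library, and neither level nor share was called by edgeR in any comparison (adjusted p of 0.535 or more). HNRNPH1-218 held 13.4% to 21.4% of the HNRNPH1 reads over all libraries and HNRNPDL-202 2.46% to 6.32% of the HNRNPDL reads. CLK1-204, of a kinase that phosphorylates SR proteins, was at 0 in both controls and 1 library of CX-5461 at 10 min and at 1.38% to 20.4% elsewhere. PTBP1-218 was at 0 in 11 libraries and CLK4-210 in 6.

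Ribosomal protein genes held 57 NMD transcripts in 36 genes, of which 48 could be tested on the level and 39 on the share. RPL22L1-204 with CX-5461 at 10 min was the only one called on the level by edgeR (1 of 48, where 0.293% of all transcripts were called). On the share none was called by edgeR (0 to 7 at an unadjusted p under 0.05 in a comparison, 0 by limma). Of all transcripts, edgeR called 0.0701% to 0.244% on the share in a comparison. DESeq2 called 0 to 5 on the level in a comparison (0% to 10.4% of the 48, against 1.26% to 3.24% of all transcripts), with 5 for CX-5461 at 10 min against the control, where it called 3% of all transcripts. Their reads took between 5.08% and 5.70% of the reads of these genes in all 14 libraries. RPL3-204 held at most 0.419% of the RPL3 reads.

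When the reads of all NMD transcripts of a gene were summed and set against its other reads, 2658 genes could be tested and between 0 and 4 were called in a comparison (0% to 0.15%). A gene enters this test only through its NMD transcripts, so that it has no wider background than these genes. They were ZNF385A, RABL6, SMIM13, EIF4G3, ZW10, PLAUR and EFEMP1, whose transcripts are described above. Between the compounds 0 were called at 10 and 120 min by edgeR (85 and 127 at an unadjusted p under 0.05) and 1 at 30 min. Without control replicate 2 between 0 and 7 were called. Over the 3545 members whose share was tested, the median log2 odds ratio against the control lay between -0.20 and -0.05, and between -0.003 and 0.087 for all transcripts. Without control replicate 2 these medians were -0.06 to 0.02 and -0.04 to 0.02.

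The genes that carry out NMD, 15 in the list, were all tested at the gene level, as sums over all their transcripts. Their log2 differences lay between -1.04 and 0.88, and 44 of 165 tests had an unadjusted p under 0.05. That count has no share of all genes beside it and does not set the NMD factors apart. Up to 18% of all genes passed even the adjusted p in a comparison. Only PNRC2, which links UPF1 to decapping, was called, and only with CX-5461 at 10 min, where 1.64% of all genes were called. It stood at 37.5 and 38.2 TPM there and at 72.1 and 76.2 TPM in the controls, with 60.0 to 78.3 TPM in the other 10 libraries. The log2 change was -1.04 (SE 0.0985, edgeR adjusted p = 2.15e-04). Without control replicate 2 it was -0.91 (edgeR adjusted p = 1.90e-04), under the limit of 1. In the comparisons that do not use the controls PNRC2 also passed the adjusted p under the limit. It was higher by 0.88 with RBI2 than with CX-5461 at 10 min (edgeR adjusted p = 7.12e-04), where 3.06% of all genes passed, and differed by -0.91 between CX-5461 at 10 min and its later labels (edgeR adjusted p = 2.49e-04), where 3.9% passed. With RBI2 at 120 min against the control, 6 of the 15 passed the adjusted p without reaching the limit, and 18% of all genes passed it. The helicase gene UPF1 was higher by 0.65 (edgeR adjusted p = 0.00737), DHX34 by 0.54, SMG5 by 0.51 and SMG6 by 0.49, and PNRC2 differed by -0.32 and SMG8 by -0.31. Without control replicate 2 UPF1 (0.55, edgeR adjusted p = 0.0135), DHX34 (0.48), SMG6 (0.47) and SMG5 (0.31, edgeR adjusted p = 0.0222) passed, while PNRC2 (-0.19, edgeR adjusted p = 0.184) and SMG8 (-0.32, edgeR adjusted p = 0.0603) did not. Against CX-5461 at 120 min, where 16.1% of all genes passed the adjusted p, 5 of the 15 passed it under the limit. SMG6 (0.52), UPF1 (0.43) and DHX34 (0.40) were higher with RBI2, and NBAS (-0.65) and SMG8 (-0.61) lower. Between RBI2 at 120 min and its earlier labels SMG6 (0.39) and DHX34 (0.37) passed, as did 2.49% of all genes. None of the 5 exon junction complex genes (EIF4A3, MAGOH, MAGOHB, RBM8A and CASC3) was called by edgeR or DESeq2 in any comparison. In edgeR 4 of 55 tests had an unadjusted p under 0.05, again without a share of all genes beside them. UPF1, UPF2, UPF3A, UPF3B, SMG5, SMG6 and PNRC2 have no NMD transcript in this set.

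Genes known to be held down by NMD were tested in the same way, 14 in number. With RBI2 at 10 min GADD45B, of a growth arrest protein, was higher by 1.04 (edgeR adjusted p = 0.00179, 0.0778% of all genes called), and by 0.90 without control replicate 2. With CX-5461 at 10 min the stress factor gene ATF3 was higher by 1.66 (edgeR adjusted p = 4.28e-04), while GADD45A (-1.20, edgeR adjusted p = 2.51e-05) and the snoRNA host gene SNHG12 (-1.37, edgeR adjusted p = 5.67e-04) were lower. GADD45A stood at 42.0 and 43.5 TPM there and at 77.6 to 129.8 TPM in the other 12 libraries, without overlap. The snoRNA host GAS5 stood at 282 and 278 TPM there and at 376 TPM or more elsewhere (log2 change against the control -0.89, under the limit). GADD45B (0.88), GAS5, SNHG15 (-0.91) and ATF4 (-0.51) also passed the adjusted p there without a call, so that 7 of the 14 passed it, against 4.77% of all genes. These 7 changed in both directions, and the list was chosen with earlier results of these data known. Their share is therefore no test of NMD-sensitive genes as a set. SNHG15 reached -1.15 without control replicate 2. None of the 14 was called with RBI2 at 30 or 120 min or CX-5461 at 30 or 120 min (0.0389%, 1.82%, 0% and 0.0454% of all genes). Under the limit, 3 passed the adjusted p with RBI2 at 120 min, where 18% of all genes did. These were SMG5, which is also among the NMD factors, GADD45B (0.41) and GADD45A (0.33), and without control replicate 2 only SMG5 passed (GADD45B 0.28 and GADD45A 0.26, edgeR adjusted p = 0.0855 and 0.0880). With CX-5461 at 120 min GADD45B passed (0.74, and 0.58 without control replicate 2), where 0.0778% of all genes did. With RBI2 against CX-5461 at 120 min, where 16.1% of all genes passed, GADD45A (0.64), GAS5 (0.28) and GADD45B (-0.32) passed.

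Between the compounds at 10 min, where 1.04% of all genes were called, 4 of the 14 were called, which again is no test of the list. GADD45A (log2 1.40), SNHG12 (1.39) and SNHG15 (1.00) were higher with RBI2 and ATF3 (-1.13) was lower. GAS5 (0.94) and ATF4 (0.46) passed the adjusted p under the limit. SNHG15 dropped out without any 1 of 9 libraries, all but control replicate 1, replicate 2 of RBI2 at 30 and 120 min and of CX-5461 at 30 min, and CX-5461 120 min replicate 1 (0.88 to 1.12, adjusted p up to 0.122) and with DESeq2, and ATF3 without CX-5461 10 min replicate 1 or RBI2 10 min replicate 1 (-1.28 to -1.01, adjusted p up to 0.0702). Between CX-5461 at 10 min and its later labels, where 1.07% of all genes were called, GADD45A (-1.01), SNHG12 (-1.35) and ATF3 (1.18) were called. SNHG15 (-0.99), GAS5 (-0.67), ATF4 (-0.50) and GADD45B (0.36) passed the adjusted p under the limit. GADD45A fell under the limit without any 1 of 5 libraries, replicate 2 of each CX-5461 group and replicate 1 of RBI2 at 10 and 30 min (-1.04 to -0.98). The levels of these listed genes are those of whole genes and not of NMD transcripts.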

How the data were processed

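Each library was labelled with its compound, time and replicate number, and groups were taken from these labels. Some deposited file names carry other times, and the labels were used. Per the study's methods, the authors removed reads aligned to rRNA and quantified the rest on GRCh38 transcripts, and the submitters' processing notes list Salmon 1.3.0, STAR 2.7.6a, SAMtools 1.11, bedtools 2.29.2 and DESeq2 1.28.1. The deposited values are estimated counts per transcript, not normalized, TPM values scaled by the authors to length and depth, and the length and effective length the authors' tool gave. Strand use in the quantification is not given in the sources used here.

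Transcript types came from GENCODE release 44, which held 225662 of the 228754 transcripts by identifier (214947 with the same version). The NMD transcripts, the lists and the comparisons were chosen with earlier results of these data known. A list's share beside that of all transcripts or genes is therefore a description and not a test. Estimated counts were rounded and tested with edgeR 4.0.16 in R 4.3.3 (TMM scaling, filterByExpr with a minimum count of 10, quasi-likelihood F test, 1 model over all 14 libraries and 7 groups), with Benjamini-Hochberg adjustment over all transcripts or genes of a comparison. The share of a gene was tested as the transcript's reads against the gene's other reads, both with a mean of at least 10 reads. Calls needed an adjusted p under 0.05 and a log2 difference of at least 1. Permutation tests went through all arrangements in Python 3.11.15 with numpy 2.4.6. DESeq2 1.42.0 and limma 3.58.1 were alternatives. The comparisons within a compound, the reads summed over the NMD transcripts of a gene, limma on log2 CPM and the medians and listed genes without control replicate 2 were added after seeing the data. Others were no filter, DESeq2 size factors, an offset for the effective length, a mean of at least 50 reads, a replicate block, separate fits per comparison and leaving out each library. Reads under 0.5 were taken as listed at 0.

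Members were named by rule: the 10 with the highest mean TPM, the 2 largest rises and falls of level and share per comparison among those called with at least 1 TPM or 5% and no overlap between groups, the most abundant NMD transcript of listed splicing regulators and NMD factors, and called list members.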

Additional observations from a re-analysis of the deposited data

Results flagged for a closer look

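The results listed here are the NMD transcripts for which RBI2 and CX-5461 differed at the same label in a direct test (edgeR, adjusted over all transcripts). At 10 min the level of VIM-206 (adjusted p = 0.0347), ARMC6-219 (adjusted p = 0.0132) and NPIPB4-213 (adjusted p = 0.0257) was higher with RBI2, and that of ZNF385A-211 (adjusted p = 0.00674) and ENST00000570760 (adjusted p = 0.0144) was lower. The share differed for ARMC6-219 (adjusted p = 0.0464), NPIPB4-213 (adjusted p = 0.0294) and ZNF385A-211 (adjusted p = 0.0445). These 3 share calls were all lost with the replicate block (adjusted p = 0.0922, 0.0813 and 0.0979), those of ARMC6-219 and NPIPB4-213 also without any 1 of the 12 treated libraries (adjusted p up to 0.147 and 0.0865) and that of ZNF385A-211 without any 1 of the 14 (0.0536 to 0.116). At 30 min KDM3B-207 was higher with RBI2 in level (adjusted p = 0.0106) and share (adjusted p = 0.0415). ZW10-202 was lower in level (adjusted p = 9.43e-04) and share (adjusted p = 0.00564), as was ARMC6-219 (adjusted p = 0.0199 and 0.0433). At 120 min SNF8-217 was higher with RBI2 in level (adjusted p = 0.0207) and share (adjusted p = 0.00929). BCLAF1-206 was lower in level (adjusted p = 0.0354) and share (adjusted p = 0.0353), SAMHD1-214 likewise (adjusted p = 0.0133 and 0.00871) and ARID1A-206 likewise (adjusted p = 0.0133 and 0.00679), while EFEMP1-214 was lower in level (adjusted p = 0.0491). Except for VIM-206, each of these was listed at 0 in both libraries of 1 of the 2 groups compared. The level calls of ZNF385A-211, ZW10-202, SAMHD1-214 and ARID1A-206 and the share calls of ZW10-202, SAMHD1-214, ARID1A-206 and SNF8-217 held without any 1 library and with the replicate block. Every other one named here was lost without at least 2 of the 14 libraries, each taken alone, and none was kept in a fit of only the 2 groups compared. Groups of 2 libraries are too small to test a single library as an outlier.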

How the results depend on the processing

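The counts below follow the order RBI2 against control at 10, 30 and 120 min, CX-5461 against control at 10, 30 and 120 min, RBI2 against CX-5461 at 10, 30 and 120 min, CX-5461 at 10 min against later, and RBI2 at 120 min against earlier. DESeq2 called the level of 95, 161, 190, 154, 145, 107, 92, 81, 159, 78 and 108 members. limma on log2 CPM, chosen after seeing the data, called 12, 20, 25, 28, 10, 21, 16, 11, 26, 17 and 15, and limma on the share 12, 16, 20, 18, 9, 17, 12, 9, 22, 13 and 17. Separate fits per comparison gave 0 for level and share in all 11. Without the filter the level gave 2 (RBI2 10 min), 3 (RBI2 30 min), 5 (CX-5461 10 min) and 0 (CX-5461 30 min) against the control, 3 between compounds at 10 min and 4 within CX-5461. A mean of at least 50 reads gave 4 shares for RBI2 30 min, 1 for CX-5461 30 min and 3 for CX-5461 120 min. The other counts of these 2 settings stayed within 1.5 times. The causes were not tested. Among the settings of this section, the shares of all transcripts are given above for DESeq2 and for the fits without a control replicate. The counts of the other settings have no such share beside them and do not show whether members differed from other transcripts.

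With 1 library left out, the level counts ranged, in the same order, over 2 to 223, 3 to 266, 4 to 264, 5 to 257, 0 to 258, 1 to 211, 2 to 8, 1 to 17, 2 to 19, 1 to 16 and 5 to 22. The share counts ranged over 1 to 202, 4 to 226, 6 to 195, 5 to 214, 1 to 228, 3 to 190, 0 to 5, 1 to 18, 3 to 24, 0 to 9 and 3 to 27. The highest values against the control came without control replicate 1. A library left alone in its group is assumed to vary like the others. The percent of reads differed by -0.123 to -0.016 between RBI2 and CX-5461 and by -3.03 to -0.151 between treated and control. The latter was -1.89 in TPM, -0.389 of all reads and -0.761 without mitochondrial genes (exact permutation p = 0.0769, 0.0659 and 0.0549).

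Over 21 pairs of groups the correlation of same-numbered deviations ran from -0.076 to 0.115, with 3 over 0.1. The labels do not say whether equal replicate numbers mark a shared batch. Deviations of single transcripts, whose estimates vary within a group, cannot decide it. With the replicate block the level counts against the control were 2, 3, 4, 6, 0 and 1, then 2 and 3 between compounds at 10 and 120 min and 2 within CX-5461. The share counts were 1 and 2 (RBI2 10 and 30 min), 1 and 2 (CX-5461 30 and 120 min), 0 and 1 between compounds at 10 and 30 min, and 0 within CX-5461. No share of all transcripts under the block stands beside these counts, so they do not compare members with other transcripts. Of 70 level calls 31 held under the block, and 69 with DESeq2. No call changed direction under any setting.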
